A study of Mus musculus with 8 samples.

Results

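Liver RNA was examined for 10 genes that mark hepatocytes around the central vein or respond to Wnt signalling: the enzyme genes Glul and Oat, the transporter genes Slc1a2 and Rhbg, the secreted factor gene Lect2, the receptor gene Lgr5, the feedback inhibitor genes Axin2, Rnf43 and Znrf3, and the transcription factor gene Tbx3. They were chosen by name, with earlier results of these data known. All 10 were found among the 34547 genes of the files and had enough reads to be among the 13678 genes tested. The livers came from 4 C57BL/6J mice injected by tail vein with adeno-associated virus (AAV, widely used to bring genes into hepatocytes) that carried mouse Nudt7, and from 4 control mice of the same strain whose AAV carried green fluorescent protein (GFP). Nudt7 is a peroxisomal hydrolase of coenzyme A and its acyl esters. Every mouse received 2.5e+11 particles in 150 µl at 8 weeks of age and was fasted for 24 h before its liver was taken 3 to 4 weeks later, at 11 to 12 weeks. All 8 mice thus carried AAV, kept their own Nudt7 gene and were fasted. The sources used here do not give the promoter of the transgene, the sex of the mice or any batch.

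In the liver lobule, blood flows from the portal vein to the central vein, and hepatocytes along this path differ in what they express. Endothelial cells of the central vein release Wnt ligands and R-spondin, which stabilise beta-catenin in the hepatocytes nearest to them. Beta-catenin then acts with transcription factors of the TCF/LEF family on genes of the pericentral zone. Glul, which encodes glutamine synthetase, is restricted to a thin layer of hepatocytes around that vein. Lgr5 is a receptor for R-spondins, and Rnf43 and Znrf3 are ubiquitin ligases that remove Wnt receptors from the cell surface until R-spondin neutralises them. Axin2 is a scaffold of the complex that degrades beta-catenin and is itself a target of the pathway. RNA of whole livers was measured, so that fewer cells of a type and less RNA per cell cannot be told apart, and the position of a cell in the lobule was not recorded.

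Libraries held 11187806 to 23640734 estimated reads. Nudt7 stood at 1301, 1599, 3569 and 1555 CPM (reads per 1000000 after TMM scaling) in the Nudt7 livers of replicates 1 to 4, against 60.7, 75.9, 79.9 and 72.9 CPM in the GFP livers. Of 7 hepatocyte markers 6 were matched to the annotation, and they summed to 58863 to 85809 CPM in Nudt7 livers, against 69656 to 85162 CPM in GFP livers. Of the 6, 4 had negative fold changes, and the hepatocyte transcription factor gene Hnf4a was lower in every Nudt7 liver than in any GFP liver (log2 fold change −0.43, edgeR adjusted p = 0.422). Nudt7 replicate 3 stood apart, at 63.1 on a first principal component (36.3% of the variance) along which the other 7 libraries ran from −19.9 to 2.83. Red blood cell markers summed to 303 to 1813 CPM in Nudt7 livers, with replicate 3 the highest, against 412 to 598 CPM in GFP livers; all 5 had positive fold changes and 0 of them was at 0 throughout. Their part in the results below was not tested.

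No member passed the test in either direction. Of the 10 genes, 0 were called higher and 0 lower in Nudt7 livers by edgeR's quasi-likelihood test at an adjusted p under 0.05, where 0.0439% of all tested genes were called higher, 0.0731% lower and 0.117% in all. Before adjustment 4 of the 10 had p under 0.05, all with positive fold changes (Oat, Lect2, Tbx3 and Rnf43), where 4.25% of all tested genes did so in that direction, 4.03% in the other and 8.28% in all. Fold changes were positive for 8 of the 10 genes, against 49.8% of all tested genes, and their median was 0.39 log2 units, against −0.000886 for all genes. Groups did not overlap for 1 of the 10 genes, Oat, higher in Nudt7 livers, where 2.74% of tested genes lay wholly higher, 3% wholly lower and 5.75% in all. DESeq2 called 1 of the 10, again Oat, higher, where it called 0.686% higher, 0.499% lower and 1.19% in all of the 12827 genes with an adjusted p. Limma-voom called 0 of the 10 (0.0366% of genes higher and 0.0366% lower, 0.0731% in all), as did limma-voom with sample weights (0.424% higher, 0.307% lower, 0.731% in all) and edgeR with the length trend removed (0.161% higher, 0.11% lower, 0.271% in all). Without Nudt7 replicate 3, edgeR again called 0 of the 10, with log2 fold changes of 0.21 for Glul, 0.44 for Oat, 0.69 for Lect2 and 0.92 for Tbx3.

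**Figure D1:**
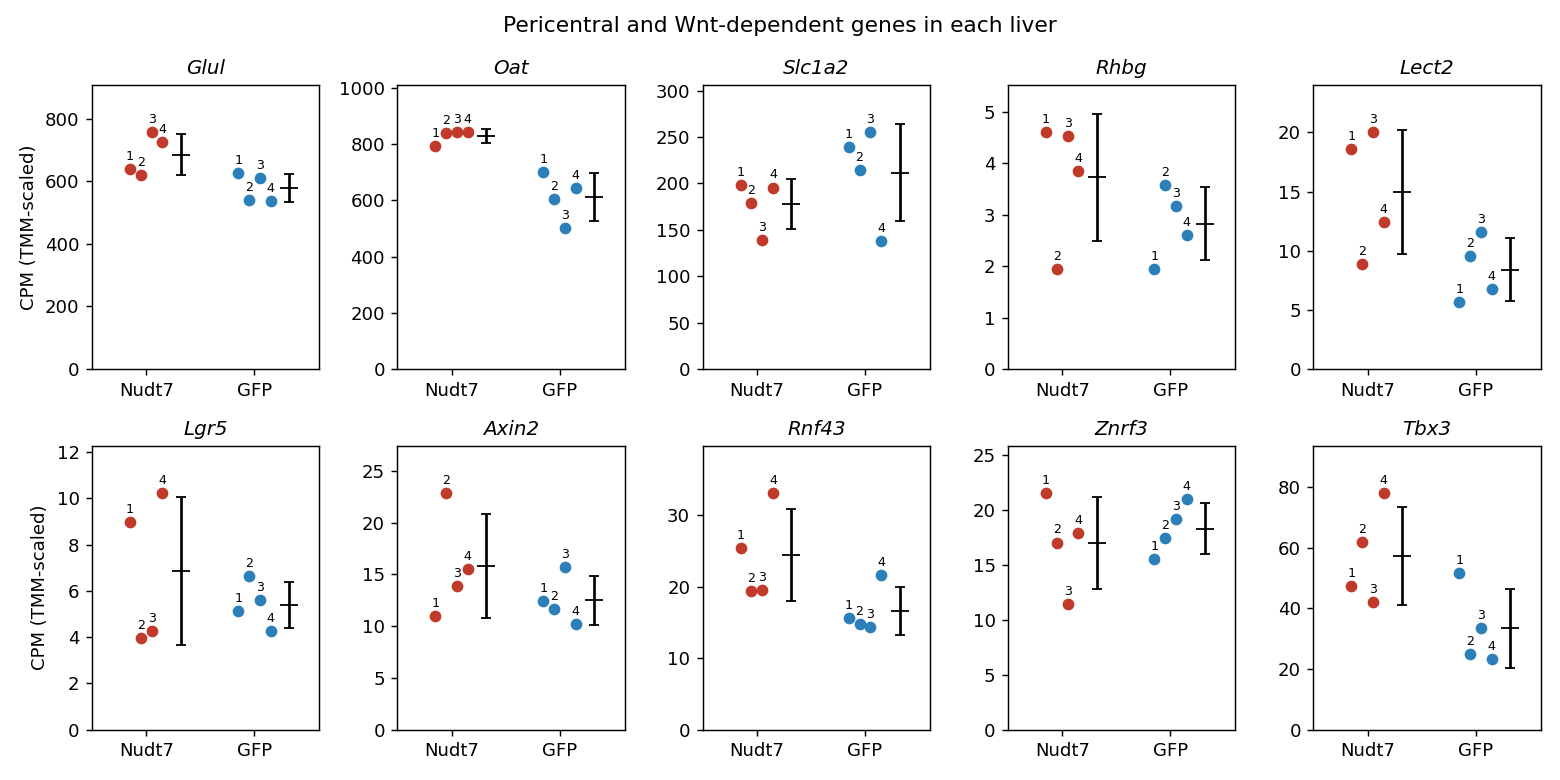
CPM (TMM-scaled, linear axes from 0) of each gene in the 4 Nudt7 and the 4 GFP livers; numbers beside points are replicates, and the black marks are the mean ± SD of the 4. Oat is the gene whose groups do not overlap, with its lowest Nudt7 liver at 793 CPM and its highest GFP liver at 700.2 CPM.

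Oat encodes ornithine aminotransferase, a mitochondrial enzyme that links ornithine to glutamate. It lies on chromosome 7 (132557478 to 132576398, minus strand, GRCm38). Its level was 793, 840.0, 843 and 842 CPM in Nudt7 livers 1 to 4, against 700.2, 606 and 500.4 CPM in GFP livers 1 to 3 and 644 CPM in GFP liver 4. All 4 Nudt7 livers lay above all 4 GFP livers. Means and SDs were 829 ± 24.6 CPM over the 4 Nudt7 livers, against 612 ± 84.2 CPM over the 4 GFP livers. The fold change was 1.35, or 0.44 on the log2 scale (SE 0.14, 95% confidence interval 0.14 to 0.73, edgeR adjusted p = 0.386). DESeq2 gave 0.45 with an adjusted p = 0.0487, and the adjusted p ran from 0.0487 to 0.818 over the 16 alternatives. On the TPM scale (transcripts per 1000000, scaled for length) the groups overlapped, at 594, 619.6, 467 and 619.8 TPM in Nudt7 livers and 531, 463, 396 and 452 TPM in GFP livers. Nudt7 replicate 3 was the highest liver of its group in CPM and the lowest in TPM, and without it the log2 fold change was 0.44.

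Glul converts glutamate and ammonium into glutamine, and takes up in the pericentral layer the ammonium that the urea cycle has left. The gene lies on chromosome 1 (153899944 to 153909723, plus strand). It stood at 638, 619.8, 757 and 727 CPM in Nudt7 livers, against 625, 540.4, 609 and 537 CPM in GFP livers. In CPM, replicate 2 of the Nudt7 livers lay just below replicate 1 of the GFP livers. In every other pair the Nudt7 liver was the higher in CPM, in 15 of 16 pairs. Means and SDs were 685 ± 66.6 CPM over the 4 Nudt7 livers, against 578 ± 45.96 CPM over the 4 GFP livers, with a log2 fold change of 0.25 (SE 0.13, 95% interval −0.037 to 0.53, edgeR adjusted p = 0.651). The interval spans 0.975-fold to 1.44-fold, so the data allow no difference as well as an excess of that size. On log2 TPM the fold change was 0.13, an alternative added after the values were seen. The livers stood at 354, 345, 307 and 381 TPM in the Nudt7 group, against 349, 306, 348 and 271 TPM in the GFP group. Nudt7 replicate 3, the highest liver in CPM, was thus the lowest of its group in TPM. Glul shares 18.5% of its 31-base sequence words with the pseudogene Glns-ps1, and its counts are uncertain to the extent that Salmon split reads between them.

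Slc1a2, on chromosome 2 (102658659 to 102790784, plus strand), encodes a glutamate transporter best known from astrocytes, which supplies pericentral hepatocytes with the substrate of glutamine synthetase. Its level was 198, 179, 139 and 196 CPM in Nudt7 livers, against 239, 214, 255 and 138 CPM in GFP livers. GFP replicate 4 and Nudt7 replicate 3 were the lowest livers, and the groups overlapped. The log2 fold change was −0.25 (SE 0.19, 95% interval −0.67 to 0.17, edgeR adjusted p = 0.723), with means and SDs of 178 ± 27.1 CPM over the 4 Nudt7 livers, against 212 ± 51.97 CPM over the 4 GFP livers. It was −0.39 without GFP replicate 4, −0.13 without GFP replicate 3 and −0.14 without Nudt7 replicate 3. Slc1a2 was 1 of the 2 members with a negative fold change.

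Rhbg, on chromosome 3 (88242874 to 88254709, minus strand), encodes an ammonium transporter of the Rhesus family and had the fewest reads of the 10 genes. It stood at 4.61, 1.94, 4.53 and 3.84 CPM in Nudt7 livers, against 1.94, 3.58, 3.18 and 2.61 CPM in GFP livers. These came from 22 to 59 reads in Nudt7 libraries and 28 to 60 reads in GFP libraries. Nudt7 livers 1, 3 and 4 lay above every GFP liver, and Nudt7 replicate 2 lay level with the lowest GFP liver. Its fold change on the log2 scale was 0.41 (SE 0.29, 95% interval −0.22 to 1.04, edgeR adjusted p = 0.708), and 0.62 without Nudt7 replicate 2. Its value is uncertain, because Gm38392, a gene on the same strand, shares 1190 exon bases and 60.8% of the sequence words of Rhbg. Gm38392 itself was given a mean of 8.89 reads per library.

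Lect2, on chromosome 13 (56542464 to 56548502, minus strand), encodes a factor that hepatocytes secrete and that is known as a target of beta-catenin in liver. It had 18.6, 8.83, 20.01 and 12.4 CPM in Nudt7 livers, against 5.68, 9.57, 11.5 and 6.74 CPM in GFP livers. Nudt7 livers 1, 3 and 4 lay above every GFP liver, while Nudt7 replicate 2 lay among the GFP livers. Means and SDs were 14.95 ± 5.26 CPM over the 4 Nudt7 livers, against 8.38 ± 2.67 CPM over the 4 GFP livers. This was the largest fold change of the 10 genes, 0.85 on the log2 scale (SE 0.28, 95% interval 0.23 to 1.46, edgeR adjusted p = 0.444), and it was 0.68 with the trend of counts with transcript length removed. Lect2 also had the shortest transcripts of the 10, with a mean effective length of 693 bases.

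**Figure D2:**
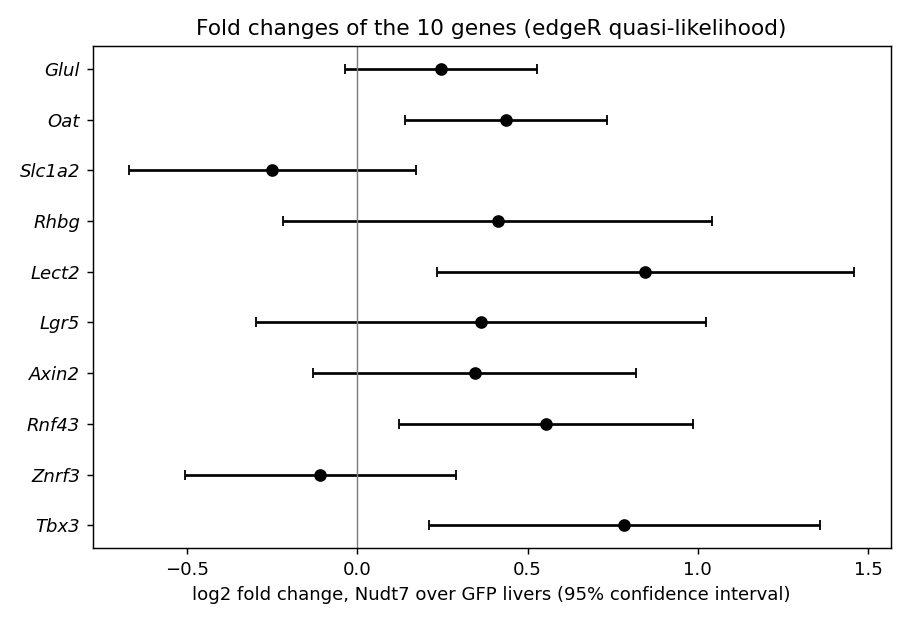
Log2 fold change of each gene, Nudt7 over GFP livers (x axis), with its 95% confidence interval from the edgeR quasi-likelihood fit. The intervals of Oat, Lect2, Rnf43 and Tbx3 lie above 0, and those of the other 6 genes include 0; no gene passes after adjustment over all genes tested.

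Lgr5, on chromosome 10 (115450311 to 115587780, minus strand), was at 8.98, 3.97, 4.28 and 10.2 CPM in Nudt7 livers, against 5.12, 6.65, 5.60 and 4.26 CPM in GFP livers. Nudt7 livers 1 and 4 were the highest of all 8 and Nudt7 replicate 2 the lowest, so that the 4 GFP livers lay wholly inside the range of the Nudt7 livers. The log2 fold change was 0.36 (SE 0.30, 95% interval −0.30 to 1.02, edgeR adjusted p = 0.741). It was 0.10 without Nudt7 replicate 4, 0.55 without Nudt7 replicate 3 and 0.55 without Nudt7 replicate 2. Over protein-coding transcripts alone it was 0.17 (edgeR adjusted p = 0.916); adjusted p ran from 0.577 to 0.927 over the 16 alternatives.

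Axin2, on chromosome 11 (108920349 to 108950783, plus strand), stood at 11.0, 22.9, 13.9 and 15.5 CPM in Nudt7 livers, against 12.4, 11.7, 15.7 and 10.2 CPM in GFP livers. Nudt7 replicate 2 was the highest liver, and the other 3 Nudt7 livers lay within the GFP range. The log2 fold change was 0.34 (SE 0.22, 95% interval −0.13 to 0.82, edgeR adjusted p = 0.685), and 0.12 without Nudt7 replicate 2. Rnf43, also on chromosome 11 (87662722 to 87735539, plus strand), was at 25.5, 19.4, 19.6 and 33.1 CPM in Nudt7 livers, against 15.6, 14.8, 14.3 and 21.6 CPM in GFP livers. Nudt7 livers 1 and 4 lay above every GFP liver, and livers 2 and 3 lay below GFP replicate 4 and above the other 3 GFP livers. For Rnf43 the means and SDs were 24.4 ± 6.44 CPM over the 4 Nudt7 livers, against 16.6 ± 3.40 CPM over the 4 GFP livers. The log2 fold change of Rnf43 was 0.55 (SE 0.20, 95% interval 0.12 to 0.99, edgeR adjusted p = 0.470), and 0.37 without Nudt7 replicate 4. Over protein-coding transcripts alone it was 0.67 (edgeR adjusted p = 0.498).

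Znrf3, the closest relative of Rnf43, lies on chromosome 11 (5276324 to 5444847, minus strand). It was at 21.6, 17.0, 11.4 and 17.9 CPM in Nudt7 livers, against 15.6, 17.5, 19.2 and 21.04 CPM in GFP livers. Its groups overlapped, with Nudt7 replicate 3 the lowest liver and Nudt7 replicate 1 the highest. The log2 fold change was −0.11 (SE 0.18, 95% interval −0.51 to 0.29, edgeR adjusted p = 0.876), and it was 0.050 without Nudt7 replicate 3. Rnf43 and Znrf3 thus had fold changes of opposite sign, and the difference between them was not tested. With the length trend removed they were at 0.58 and −0.032.

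Tbx3, on chromosome 5 (119670669 to 119684724, plus strand), encodes a T-box repressor that beta-catenin induces in liver. It stood at 47.3, 61.9, 42.2 and 78.1 CPM in Nudt7 livers, against 51.7, 24.9, 33.5 and 23.4 CPM in GFP livers. GFP replicate 1 lay among the Nudt7 livers, and the other 3 GFP livers lay below all 4 of them. Means and SDs were 57.4 ± 16.1 CPM over the 4 Nudt7 livers, against 33.4 ± 13 CPM over the 4 GFP livers, a log2 fold change of 0.78 (SE 0.26, 95% interval 0.21 to 1.36, edgeR adjusted p = 0.451). It was 1.09 without GFP replicate 1 and 0.60 without Nudt7 replicate 4.

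The 10 genes did not order the livers alike. Nudt7 replicate 4 was above the 8-liver mean for all 10 genes and Nudt7 replicate 1 for 9, against 3 for Nudt7 replicate 2 and 6 for Nudt7 replicate 3. Among GFP livers the counts were 2, 4, 5 and 2 in replicates 1 to 4. In CPM, Nudt7 replicate 4 was the highest liver for the Wnt response genes Lgr5, Tbx3 and Rnf43. Nudt7 replicate 3 was the highest in CPM for Glul, Oat and Lect2, though for Oat nearly level with replicate 4 (843 against 842 CPM). In TPM, replicate 4 stayed the highest for Lgr5, Tbx3 and Rnf43. Replicate 3 was then the lowest Nudt7 liver for Glul (307 TPM) and Oat (467 TPM). Lect2 was highest in Nudt7 replicate 1 (36.6 TPM, against 28.6 TPM in replicate 3). GFP replicate 4, the most deeply sequenced library, was the lowest in CPM for Glul, Slc1a2, Axin2 and Tbx3. Of the Nudt7 livers, replicate 3, which stood apart on the first principal component, held the most Nudt7 RNA. In it 4 of the 10 genes (Slc1a2, Lgr5, Rnf43 and Znrf3) were below their own mean, Rnf43 barely so (−0.0093 log2 units). A relation of these levels to the amount of Nudt7 RNA was not tested.

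**Figure D3:**
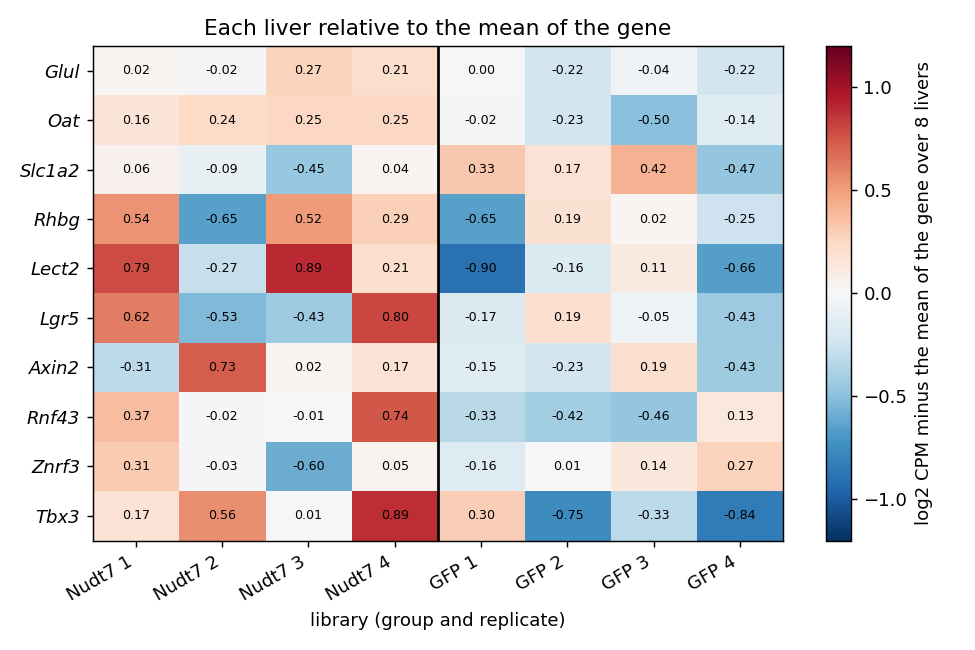
Log2 CPM of each gene (rows) in each liver (columns, Nudt7 left of the line and GFP right of it) minus the mean of that gene over the 8 livers, as colour and number. Nudt7 replicate 4 is above 0 for every gene, and GFP replicate 4 is below 0 for 8 of the 10.

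Levels of the 10 genes spanned a wide range once length was taken into account. Oat averaged 518 TPM over the 8 livers and Glul 333 TPM, which placed them above 99.2% and 98.7% of detected genes. Slc1a2 followed at 50.4 TPM, then Lect2 at 21.4, Tbx3 at 15.8, Rnf43 at 10.1, Axin2 at 6.95, Znrf3 at 4.58, Lgr5 at 2.81 and Rhbg at 2.41 TPM. The order of Oat, Glul and Slc1a2 held in all 8 libraries. Lect2 lay above Tbx3 in 5 of 8 libraries and Lgr5 above Rhbg in 5 of 8, and in both pairs the ranges overlapped in each group, so these neighbours did not differ beyond their spread. Tbx3 lay above Rnf43 in 7 of 8 libraries and Axin2 above Znrf3 in 6 of 8, although the ranges of both pairs overlapped in each group. With limma-trend on log2(TPM + 1), the alternative added after the values were seen, 0 of the 10 genes passed and 2 had an unadjusted p under 0.05. Fold changes on that scale were 0.16 for Rhbg, 0.13 for Axin2, 0.33 for Rnf43 and 0.61 for Tbx3, where the median of all genes was −0.10.

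Of the 10 genes, Lect2, Tbx3 and Lgr5 varied most among livers, with SDs of 0.63, 0.61 and 0.50 log2 CPM over all 8, whereas Glul varied least, with 0.18. Patterns were compared with those of 13012 other tested genes of at least 1 CPM by the root mean square difference in centred log2 CPM over the 8 livers. Basp1 (0.19 log2 units) and Pnldc1 (0.21) came nearest to Lect2, D930048N14Rik (0.24) and Shank2 (0.26) to Tbx3, and Il2ra (0.19) and Zfp619 (0.19) to Lgr5. These are the nearest of many genes over 8 libraries, most of them of low level, and are a description only.

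Promoter windows (250 bases before to 50 after a gene's start) were taken from RefSeq (GRCm38.p6), which held 7 windows for 6 of the 10 genes: Glul, Oat, Slc1a2, Lect2, Axin2 and, with a pair of starts, Rnf43. They were searched on both strands for ATCAAAG, the core of the site that TCF/LEF factors bind. It was found in 2 of the 7 windows, those of Slc1a2 and Lect2, and in 3.73% of all 32851 windows. In Slc1a2 it overlaps a longer form of that site with AC before it, which 0.359% of all windows hold. These windows are printed because they hold the match, with the matched letters in capitals, and that of Oat because Oat was the gene with the smallest p, in which the letters do not occur.
Slc1a2, chr2:102706188-102706487, plus strand: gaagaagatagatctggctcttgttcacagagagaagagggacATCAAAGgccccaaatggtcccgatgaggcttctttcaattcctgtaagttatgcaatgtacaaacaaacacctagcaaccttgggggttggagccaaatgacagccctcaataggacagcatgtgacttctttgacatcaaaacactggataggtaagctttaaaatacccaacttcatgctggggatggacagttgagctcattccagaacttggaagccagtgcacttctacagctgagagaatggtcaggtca
Lect2, chr13:56548489-56548788, minus strand: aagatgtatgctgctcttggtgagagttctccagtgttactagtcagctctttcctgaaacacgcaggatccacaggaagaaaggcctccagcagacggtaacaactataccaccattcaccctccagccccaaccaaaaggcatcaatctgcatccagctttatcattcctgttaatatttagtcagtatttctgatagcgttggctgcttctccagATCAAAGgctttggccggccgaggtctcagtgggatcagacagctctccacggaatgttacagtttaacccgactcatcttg
Oat, chr7:132576349-132576648, minus strand: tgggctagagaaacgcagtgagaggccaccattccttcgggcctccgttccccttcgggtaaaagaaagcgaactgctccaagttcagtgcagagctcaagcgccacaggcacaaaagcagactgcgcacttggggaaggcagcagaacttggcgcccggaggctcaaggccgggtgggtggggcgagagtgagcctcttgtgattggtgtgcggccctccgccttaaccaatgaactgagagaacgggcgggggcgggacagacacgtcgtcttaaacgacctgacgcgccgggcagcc
The match lies at 102706231 to 102706237 on chromosome 2 in Slc1a2 and at 56548564 to 56548570 on chromosome 13 in Lect2. The Lect2 window is set on a RefSeq start upstream of that of Lect2-201, the most abundant Lect2 transcript, which begins inside the window at 56548502. The Lect2 match lies upstream of both starts. Slc1a2 and Lect2 had fold changes of opposite sign (−0.25 and 0.85 log2 units). A match is a run of letters, not a measured binding site, and its lack says only that the letters are not in the window.

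The Slc1a2 window belongs to the start of Slc1a2-201 at 102706438, while the most abundant transcript, Slc1a2-202, starts upstream at 102658659. Slc1a2-202 stood at 21.3, 18.7, 10.5 and 19.1 TPM in Nudt7 livers, against 24.97, 23.3, 30.4 and 12.5 TPM in GFP livers. Slc1a2-201 stood at 14.0, 10.0, 7.28 and 11.2 TPM in Nudt7 livers, against 18.05, 15.9, 11.4 and 10.03 TPM in GFP livers. A further transcript from the start of Slc1a2-201 averaged 9.01 ± 4.26 TPM (SD) over the 4 Nudt7 livers, against 8.85 ± 3.34 TPM over the 4 GFP livers. All these transcripts overlapped between the groups, and the share of Slc1a2-202 in the TPM of the gene was 38.4% ± 2.08 (SD) over the 4 Nudt7 livers, against 40.4% ± 10.1 over the 4 GFP livers. The Rnf43 windows belong to the starts of Rnf43-209 and Rnf43-201. Rnf43-209, from the upstream start, was at 2.61, 0.00195, 1.07 and 1.71 TPM in Nudt7 livers, against 0.309, 0.484, 0.108 and 0.333 TPM in GFP livers, and the estimate of Nudt7 replicate 2 is near 0 beside higher values in the other 3 of its group. Rnf43-201 was at 2.33, 3.90, 2.35 and 5.32 TPM in Nudt7 livers, against 2.69, 2.24, 2.41 and 1.88 TPM in GFP livers, and its groups overlapped. Rnf43-202, which overlaps Rnf43-209, ran the other way, at 0.0371 TPM or less in every Nudt7 liver, against 2.39 TPM in GFP replicate 4 and 0.293 TPM or less in the other 3 GFP livers.

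The share of the most abundant transcript was tested for the 8 members with more than 1 transcript whose top transcript held less than 99% of TPM. That of Rnf43, Rnf43-206, is annotated as a retained intron and not as protein-coding. For Tbx3, the share of Tbx3-201 was 34.6%, 37.5%, 47.1% and 44.1% in Nudt7 livers, against 52.6%, 50.7%, 50.1% and 50.5% in GFP livers. Its groups did not overlap, and the exact permutation test gave the smallest two-sided p that 4 against 4 livers allow, 0.0286, or 0.229 after adjustment over the 8 members. For the other 7 genes the exact permutation p ran from 0.171 (Lgr5-201, 31.4% ± 12.9 (SD) over the Nudt7 livers, against 47.8% ± 13.2 over the GFP livers) to 0.971 (Axin2-201). Transcript shares are Salmon's division of reads among overlapping transcripts, and no member passed.

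**Figure D4:**
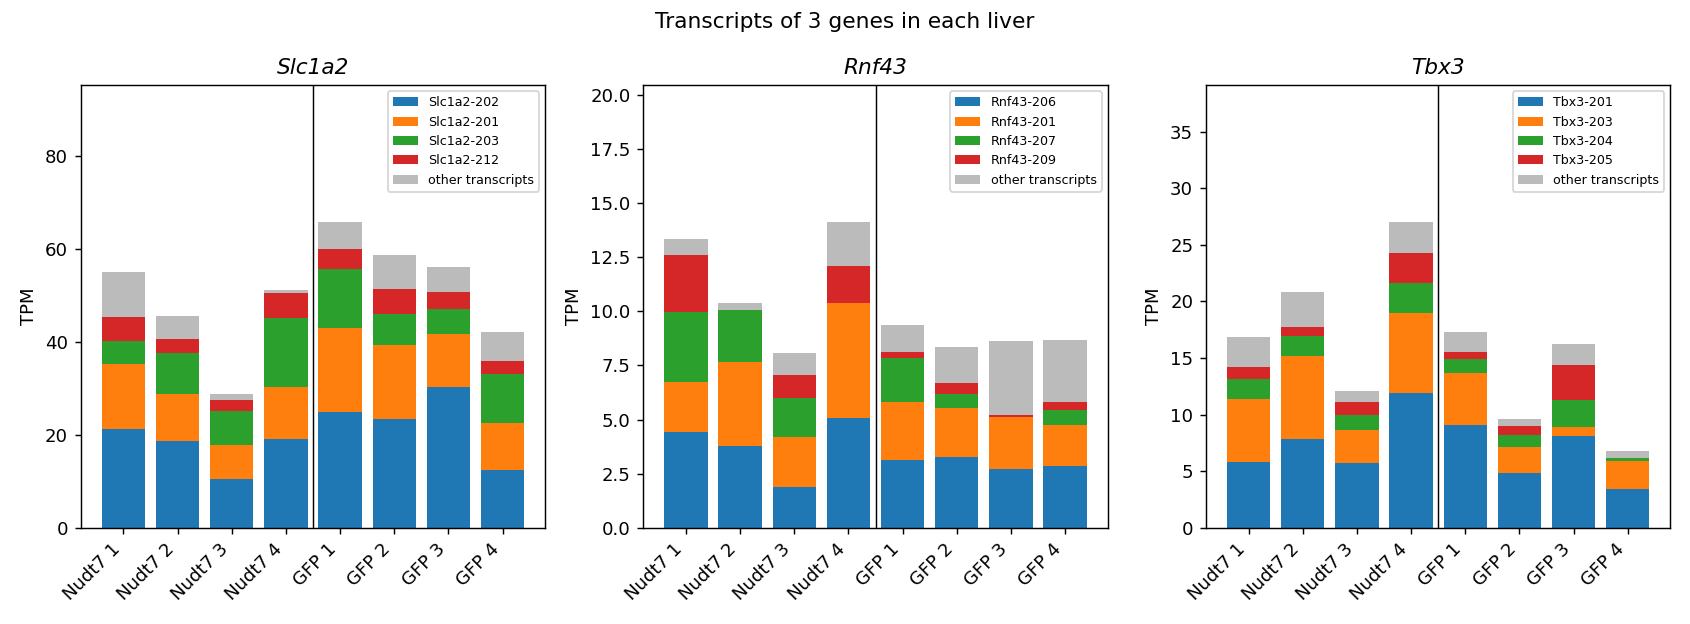
TPM of the 4 most abundant transcripts of Slc1a2, Rnf43 and Tbx3, stacked with the sum of their other transcripts, in each Nudt7 (left of the line) and GFP liver (right of it). The Tbx3-201 share (blue) is 34.6% to 47.1% of the bar in Nudt7 livers and 50.1% to 52.6% in GFP livers.

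Other genes of the pericentral zone had mostly positive fold changes, and 0 of 30 passed in either direction in edgeR. Fold changes were positive for 26 of the 30, against 49.8% of all tested genes, in a list also chosen with earlier results known. Their median log2 fold change was 0.36, and that of all genes −0.000886. Before adjustment, edgeR gave 11 of them p under 0.05, of which 10 were positive and 1 negative, where 4.25% and 4.03% of all tested genes were so. Cyp2a5, a cytochrome P450 gene, was at 130.1, 78.0, 185 and 100.3 CPM in Nudt7 livers, against 29.3, 58.8, 68.6 and 52.5 CPM in GFP livers, and all Nudt7 livers lay above all GFP livers. Its log2 fold change was 1.24 (SE 0.29, edgeR adjusted p = 0.179), and DESeq2 called it at adjusted p = 0.00399. Cyp2c50, another cytochrome P450 gene, was at 0.74 (SE 0.19, edgeR adjusted p = 0.233) and was the other gene of the list that DESeq2 called, at adjusted p = 0.0259. Gstm3 and Gstm1, which encode glutathione S-transferases, were at 1.11 (SE 0.33) and 0.70 (SE 0.22), with edgeR adjusted p values of 0.355 and 0.401. These 4 values are uncertain, because the genes share 21.3% to 58.5% of their sequence words with close relatives. Cyp2e1 and Cyp1a2, classical pericentral P450 genes named here after their values were seen, were at 0.16 (SE 0.18) and 0.53 (SE 0.22). The 4 genes with negative fold changes were likewise named afterwards. Por, the 1 of them with an unadjusted p under 0.05, was at −0.47 (SE 0.19, edgeR adjusted p = 0.528). Slc16a10 was at −0.26 (SE 0.13), Cyp27a1 at −0.18 (SE 0.20) and Notum at −0.0031 (SE 0.16).

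Periportal genes, which mark the opposite end of the lobule, had a median log2 fold change of −0.12, and 0 of 25 passed in edgeR. Of these, 10 were positive (40%, against 49.8% of all genes) and 15 negative. Before adjustment 1 positive and 5 negative fold changes had p under 0.05 in edgeR, where 4.25% and 4.03% of all tested genes did so. Tat, the tyrosine aminotransferase gene, was at 1840.2, 1175, 2037 and 1170.4 CPM in Nudt7 livers, against 2513, 3518, 2668 and 2502 CPM in GFP livers, and its groups did not overlap. Its log2 fold change was −0.85 (SE 0.21, edgeR adjusted p = 0.225), and DESeq2 (adjusted p = 0.0158) and limma-voom with sample weights (adjusted p = 0.0244) called it. Etnppl, a phospholyase gene, was at −0.61 (SE 0.18, edgeR adjusted p = 0.368) and Pck1, a gluconeogenic enzyme gene, at −0.57 (SE 0.23, edgeR adjusted p = 0.528). Hsd17b6, a hydroxysteroid dehydrogenase gene that shares 14.6% of its sequence words with relatives, was at 0.97 (SE 0.36, edgeR adjusted p = 0.517). Tat and Pck1 are also induced by fasting, a state that all 8 mice shared.

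**Figure D5:**
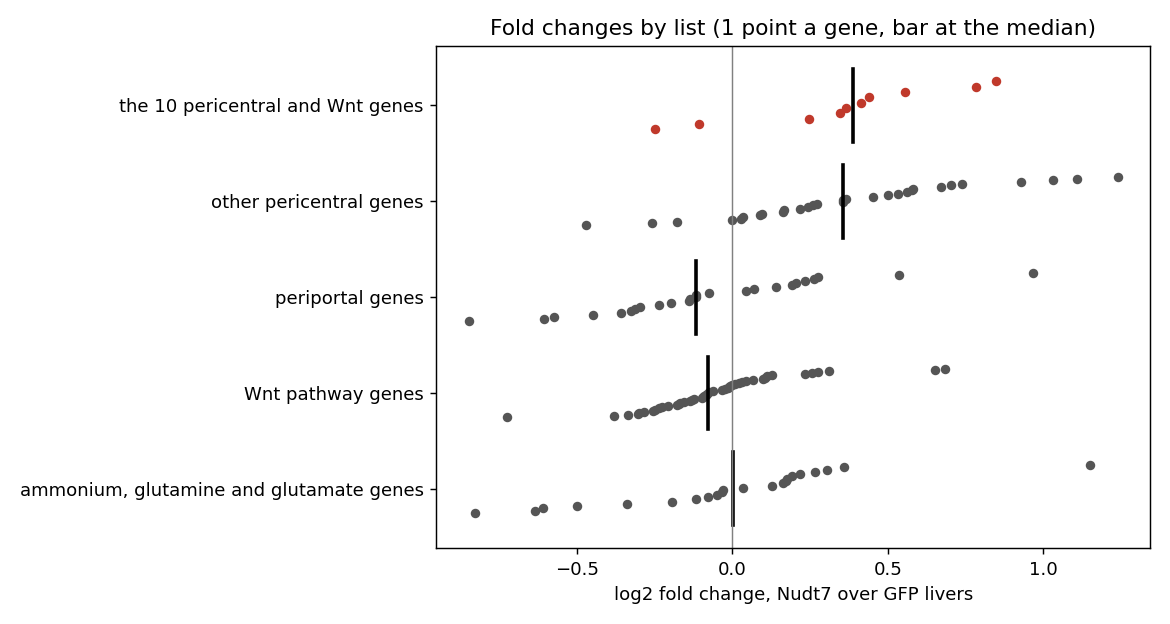
Log2 fold changes, Nudt7 over GFP livers (x axis), of the 10 genes (red) and of the tested genes of 4 related lists (grey), 1 point a gene, with a bar at each median. The median is 0.39 for the 10 genes, 0.36 for the other pericentral genes and −0.12 for the periportal genes.

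Genes of the Wnt pathway itself, from ligands to transcription factors, had log2 fold changes from −0.72 to 0.68. Of 59 listed genes 46 were tested, 0 passed in either direction in edgeR, and the median log2 fold change was −0.08, with 15 positive (32.6%, against 49.8% of all genes) and 31 negative. Before adjustment, 3 of the 46 (6.52%) had p under 0.05 in edgeR, against 8.28% of all tested genes, so that their number did not exceed the background. Fzd8, a Wnt receptor gene, was at 8.51, 10.9, 6.999 and 10.6 CPM in Nudt7 livers, against 5.33, 5.55, 6.44 and 6.17 CPM in GFP livers, with no overlap. Its log2 fold change was 0.65 (SE 0.17, edgeR adjusted p = 0.277), and limma-voom with sample weights called it (adjusted p = 0.0355). Wnt5a, a ligand gene of the non-canonical branch, was at 0.68 (SE 0.28, edgeR adjusted p = 0.561), Dvl1, a signal relay gene, at −0.28 (SE 0.12, adjusted p = 0.588) and Pygo2, a nuclear cofactor gene, at −0.25 (SE 0.12, adjusted p = 0.600). The ligand and receptor-agonist genes of the central vein and the beta-catenin gene were looked at by name after their values were seen. Wnt2 was at 0.28 (SE 0.24), Wnt9b at −0.72 (SE 0.39), Rspo3 at −0.13 (SE 0.16) and Ctnnb1 at −0.014 (SE 0.12), with edgeR adjusted p values of 0.758, 0.658, 0.830 and 0.981.

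Genes that handle ammonium, glutamine, glutamate and ornithine, the metabolites of Glul, Oat, Slc1a2 and Rhbg, split evenly by sign. There were 11 positive and 11 negative fold changes among 22 tested genes, with a median near 0 (0.00047 log2 units). The summed CPM of the 28 listed genes, in which abundant genes weigh most, did not overlap. It was 5936 to 6708 CPM in Nudt7 livers, against 6749 to 7913 CPM in GFP livers. Without Slc7a2, or without Got1, both named below, the sums of the groups overlapped. No gene of the list passed: edgeR called 0 (0.117% of all genes). Before adjustment 7 of the 22 (31.8%) had p under 0.05 in edgeR, against 8.28% of all tested genes. Of the 7, 2 had positive and 5 negative fold changes, where 4.25% and 4.03% of all tested genes were so. Got1, the cytosolic aspartate aminotransferase gene, was at 262, 427, 412 and 378 CPM in Nudt7 livers, against 600.0, 692, 473 and 863 CPM in GFP livers, with no overlap and a log2 fold change of −0.83 (SE 0.21, edgeR adjusted p = 0.212). Slc7a2, which encodes a transporter of arginine and other cationic amino acids, was at −0.64 (SE 0.16, edgeR adjusted p = 0.239), and DESeq2 called it and Got1 at adjusted p values of 0.0126 and 0.0205. Slc38a2, a glutamine transporter gene, was at −0.61 (SE 0.18, edgeR adjusted p = 0.351) and Slc1a4, a neutral amino acid transporter gene, at 1.15 (SE 0.37, edgeR adjusted p = 0.432), the last with means and SDs of 2.65 ± 1.06 CPM over the Nudt7 livers, against 1.17 ± 0.431 CPM over the GFP livers.

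Cells other than hepatocytes also express some of these genes, and their markers were measured beside them. Summed endothelial markers, 13 genes that include the central vein ligands, stood at 429 to 470 CPM in Nudt7 livers, against 483 to 520 CPM in GFP livers, and 10 of the 13 had negative fold changes. Of the bile duct cell markers, Krt19, Krt7, Epcam, Sox9, Cftr and Spp1 summed to 31.8 to 42.5 CPM in Nudt7 livers, against 17.4 to 29.4 CPM in GFP livers. Fold changes were positive for 4 of the 5 of them that were tested, with Spp1 at 1.13 log2 units (edgeR adjusted p = 0.105) and Epcam at 0.89 (edgeR adjusted p = 0.526), and Cftr was below 1 CPM in every library. The endothelial sum (lower in Nudt7 livers) and the bile duct sum (higher in Nudt7 livers) separated the groups. Of the single genes in these sums, only Stab1 and Spp1 did so. Spp1 was at 10.5 to 21.2 CPM in Nudt7 livers, against 5.56 to 8.61 CPM in GFP livers. Without Spp1 the bile duct sums of the groups overlapped. The part of these cells in the fold changes of Tbx3, Rnf43, Axin2 and Lgr5 was not tested. Stellate cell markers summed to 216 to 252 CPM in Nudt7 livers, against 209.96 to 258 CPM in GFP livers, and Kupffer cell markers to 108 to 239 CPM in Nudt7 livers and 121 to 199.6 CPM in GFP livers. In each of these lists 0 markers were at 0 in all 8 libraries, and 0 passed in edgeR.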

How the data were processed

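FastQC, Salmon, DESeq2 and the build GRCm38 are named in the submitters' processing notes; of Salmon, no version, index or option is stated there. For every transcript, the authors deposited Salmon's estimated count, which is not normalized, its TPM, which sums to 1000000 in each library, and its length and effective length, per the file headers. Libraries were made with a stranded kit from 500 ng of RNA and 9 PCR cycles, per the labels' protocols.

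Of 109282 transcripts, 107987 (98.8%) were named from GENCODE M21 by identifier without version; the others held 0.552% to 1.06% of reads and were not used. Sums of the estimated counts over the transcripts of a gene were rounded to whole numbers. The test was edgeR's quasi-likelihood test (edgeR 4.0.16, robust, TMM, filterByExpr by group), two-sided, Nudt7 against GFP, 4 livers each with no covariate, Benjamini-Hochberg adjusted over 13678 genes; limma 3.58.1 and DESeq2 1.42.0 were alternatives. Intervals come from that fit. Replicate numbers follow accession order, only name a liver and pair none across groups. The labels do not say that the livers came from separate litters or days, and p-values measure the spread between these livers. Transcript shares used an exact permutation test over livers. The edgeR script was tested on simulated data.

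The 10 genes, the 4 related lists and the 6 marker lists were chosen with earlier results of these data known. Genes named were the 10, the 4 genes of each related list with the smallest p, and the 2 nearest in pattern to each of the 3 most variable members; others are named as added. Of the bile duct cell list, the markers named in the text were summed; 1 marker is not reported here.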

Additional observations from a re-analysis of the deposited data

Results flagged for a closer look

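In 36 groups of 4 livers (CPM of the 10 genes and shares of the most abundant transcript of 8), 1 value stood far from the rest of its group by Dixon's criterion, which chance meets in about 1 of 20 groups. The Oat level of Nudt7 replicate 1 was 793 CPM, below the 840.0 to 843 CPM of the other 3 Nudt7 livers. The gap was 0.94 of the range of the group, and replicate 1 lay above all 4 GFP livers (500.4 to 700.2 CPM).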

How the results depend on the processing

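Of the 10 genes, 9 kept the direction of their fold change in all 16 alternatives (8 that left out 1 library each and 8 others, of which TPM with limma-trend was chosen after seeing the data). Znrf3 turned to 0.073 with limma-voom with sample weights and, as 1 library was left out, ran from −0.23 to 0.050, the last without Nudt7 replicate 3. DESeq2 called 1 member higher, Oat (0.45, adjusted p = 0.0487); no other alternative called a member. DESeq2 also called 2 other pericentral genes higher, 1 periportal gene lower and 2 ammonium, glutamine and glutamate genes lower, and limma-voom with sample weights 1 Wnt pathway gene higher and 1 periportal gene lower. Over all genes, 6 were called higher and 10 lower; DESeq2 called 88 and 64, limma-voom with sample weights 58 and 42, no filter on low counts 15 higher, the removed length trend 22 higher, limma-voom 5 lower, and TPM 3 and 5. Leaving out 1 library gave 1 to 8 higher and 1 to 12 lower. The median of all genes was −0.10 on log2 TPM. The cause of these differences was not tested. No paired analysis was possible because the replicate numbers follow accession order and match no animals across the groups. Rhbg had the fewest reads of the 10, 22 to 60 per library.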
